A study of Mus musculus with 9 samples.

Results

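Ttr, Pde6b, Polr1c, Cd7, Spp2, Gnmt, Rasl10a and Tph2 are 8 mouse genes known mainly from tissues or processes other than the spinal motor neuron. The brightest probe set of each gave a far brighter signal in laser-captured wild-type motor neurons than in spinal cord. The other Polr1c probe set had no such rise, and the other Spp2 probe set was below background on every array. The 8 genes were chosen by that measured difference, as genes known from elsewhere among those with the largest rise over cord. Their rise is therefore described here and not tested. Every probe set that the array annotation gives to 1 of these symbols alone was taken, which makes 13 of 45037 probe sets and 8 of 18193 annotated genes, and 11 of the 13 probe sets passed the filter on low signal. The data came from 9 mouse expression arrays in 3 groups of 3: motor neurons captured by laser microdissection from SOD1-mutant mice, motor neurons captured in the same way from wild-type mice, and spinal cord of wild-type mice. The labels call the cord samples both total and ventral spinal cord. Every title carries the code D28, which the labels do not explain. The labels name neither the SOD1 allele nor the strain of the mice, state no age in words, do not say how neurons were recognised, and leave out whether samples came from separate animals, so the p-values below measure only the spread between these arrays. Mutant SOD1 causes a familial form of amyotrophic lateral sclerosis, a disease in which motor neurons die. All arrays hold bulk RNA, in which fewer cells of a type and less RNA per cell cannot be told apart.

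The genes have different functions. Ttr encodes transthyretin, a carrier of thyroid hormone and of retinol-binding protein that liver and choroid plexus secrete, and Spp2 encodes a secreted phosphoprotein of liver and bone. Tph2 is the rate-limiting enzyme of serotonin synthesis in the raphe neurons of the brainstem, whose axons reach motor neurons in the cord. Pde6b is the beta subunit of the rod photoreceptor enzyme that breaks down cyclic GMP when light strikes. Gnmt, abundant in liver, methylates glycine and so uses up S-adenosylmethionine. Polr1c is a subunit shared by RNA polymerases I and III, which make ribosomal and transfer RNA in every cell. Cd7 is a surface protein of T and natural killer lymphocytes, and Rasl10a is a small GTPase of the Ras family.

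The sequence before the annotated start was read for 6 of the 8 genes from RefSeq promoters on GRCm38.p6, and 4 of these are shown because they cover the range from a T- and A-rich promoter to GC-rich ones. Each is the 250 bases upstream of the start, 5′ to 3′ on the gene's own strand. The windows are chr10:115185023-115185272 on the minus strand for Tph2, chr5:108388123-108388372 on the plus strand for Pde6b, chr17:46248046-46248295 on the minus strand for Polr1c and chr11:5057878-5058127 on the plus strand for Rasl10a. Capitals mark, on either strand, the TATA box TATAAA, the homeodomain core TAATTA, the GC box GGGCGG, the TGACG core bound by factors of the CREB family, and the CCAAT box.
Tph2: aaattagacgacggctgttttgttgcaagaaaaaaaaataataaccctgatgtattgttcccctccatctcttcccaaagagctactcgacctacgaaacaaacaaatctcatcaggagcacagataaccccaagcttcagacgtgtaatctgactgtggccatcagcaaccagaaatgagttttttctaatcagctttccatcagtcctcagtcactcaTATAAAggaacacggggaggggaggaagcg
Pde6b: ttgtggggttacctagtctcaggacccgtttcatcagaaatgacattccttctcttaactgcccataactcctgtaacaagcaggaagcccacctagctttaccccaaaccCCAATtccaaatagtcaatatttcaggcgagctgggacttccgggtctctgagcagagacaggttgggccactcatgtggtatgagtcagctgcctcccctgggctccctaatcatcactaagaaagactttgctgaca
Polr1c: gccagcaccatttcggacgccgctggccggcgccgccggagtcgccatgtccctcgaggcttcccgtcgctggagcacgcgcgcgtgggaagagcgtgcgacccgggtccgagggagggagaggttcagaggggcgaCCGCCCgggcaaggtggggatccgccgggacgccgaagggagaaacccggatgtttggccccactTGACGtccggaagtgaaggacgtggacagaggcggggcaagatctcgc
Rasl10a: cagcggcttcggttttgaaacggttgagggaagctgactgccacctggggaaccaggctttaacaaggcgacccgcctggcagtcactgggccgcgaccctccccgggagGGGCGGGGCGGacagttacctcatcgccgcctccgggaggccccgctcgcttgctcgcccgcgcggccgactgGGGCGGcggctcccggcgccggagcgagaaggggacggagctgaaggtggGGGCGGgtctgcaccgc

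The promoters differed widely in base composition. The GC share was 43.6% for Tph2, 49.6% for Pde6b, 70.4% for Polr1c and 72.4% for Rasl10a, beside a median of 52.4% over 32851 mouse promoters of the same length. Polr1c held 32 CpG dinucleotides and Rasl10a held 29, while Tph2 held 7 and Pde6b held 3, and the median promoter held 6. Gnmt, at 60.4% GC with 6 CpG, and Spp2, at 43.6% GC with 3 CpG, lay between or beside these.

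No motif was common to the 6 promoters. TATAAA occurred in Tph2 alone, 30 bases before the start, and in 12.4% of all promoters. GGGCGG occurred in Polr1c and at 4 places in Rasl10a, 2 of which overlap, and in 32.7% of all promoters. TGACG occurred in Polr1c alone and in 17.8% of all promoters. CCAAT occurred in Pde6b and Gnmt and in 33.9% of all promoters. The homeodomain core TAATTA was in none of the 6 windows and in 4.84% of all promoters. The E-box CANNTG, which is not capitalised, was in 4 of the 6 and in 66.2% of all promoters. These are matches of letters only.

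The captured and cord arrays differed in kind before any gene is considered. The median signal was 274 to 366 on SOD1-mutant arrays and 269 to 313 on wild-type captured arrays, against 556 to 583 on cord arrays. The 3′ over 5′ ratio of the Gapdh control probe sets, on a log2 scale, was 4.33 to 4.63 in SOD1-mutant neurons and 3.65 to 4.52 in wild-type neurons, against -0.29 to -0.26 in cord. For the Actb control probe sets it was 4.66 to 5.84 in SOD1-mutant neurons and 4.17 to 4.97 in wild-type neurons, against 0.64 to 0.69 in cord. A level of background was set on each array from 27 bacterial control probe sets, and it was 157 to 244 in SOD1-mutant neurons, 131 to 147 in wild-type neurons and 135 to 173 in cord. The 244 was that of SOD1-mutant replicate 2, which also had the highest median signal of the captured arrays and the highest 3′ over 5′ ratio for both controls. Of 16 tested motor neuron markers, 12 were higher in wild-type motor neurons than in cord and none lower, and Mnx1, a homeobox factor of motor neurons, averaged 5127 in SOD1-mutant neurons, 6882 in wild-type neurons and 285 in cord. All 12 tested oligodendrocyte markers, 9 of 9 microglia markers and 11 of 12 astrocyte markers were lower in wild-type motor neurons, and 9, 9 and 10 of them were after each array was centred on its median. The part of RNA quality in the members' differences from cord, or in those between the genotypes, was not tested.

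Ttr, the hormone carrier, is measured by 4 probe sets. Its brightest, 1454608_x_at, read 2952, 2855 and 2258 in SOD1-mutant neurons, 1040, 4518 and 3360 in wild-type neurons, and 5.49, 151 and 15.3 in cord. All 6 captured arrays lay above all cord arrays, where the probe set was not well above background, and the wild-type arrays enclosed the mutant ones. Its mean was at least 15.6-fold above cord in SOD1-mutant neurons and at least 14.7-fold in wild-type neurons, each bound being the captured mean over the higher of background and the cord signal. The second probe set, 1459737_s_at, read 1397, 1317 and 1468 in SOD1-mutant neurons, 872, 2802 and 1997 in wild-type neurons, and 7.95, 391 and 254 in cord. The third, 1455913_x_at, read 1227, 1175 and 1071 in SOD1-mutant neurons, 438, 1751 and 1080 in wild-type neurons, and 38.9, 110 and 268 in cord. Both again put every captured array above every cord array. In these 3 probe sets the wild-type neurons spread more than the mutant ones did, with replicate 1 lowest and replicate 2 highest. The dimmest, 1451580_a_at, did not pass the filter and read 585, 45.8 and 518 in SOD1-mutant neurons, 241, 705 and 428 in wild-type neurons, and 38.3, 52.5 and 41.6 in cord. Mutant replicate 2 was there below its background and below the highest cord array. In this array's naming, the x and s marks in an ID stand for probes that can also bind other transcripts.

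Spp2, the secreted phosphoprotein, had similar values in all 6 captured samples. Probe set 1418916_a_at read 1685, 1614 and 1574 in SOD1-mutant neurons, 1623, 1401 and 1802 in wild-type neurons, and 68.8, 14.4 and 96.4 in cord. The 2 captured groups overlapped, the cord arrays were all below background, and the means were at least 9.55-fold above cord in SOD1-mutant neurons and at least 9.41-fold in wild-type neurons. The second probe set, 1446777_at, read 17.1, 12.1 and 6.12 in SOD1-mutant neurons, 27.0, 8.55 and 27.3 in wild-type neurons, and 3.24, 16.2 and 14.7 in cord. It was below background on all 9 arrays, so only 1 of the 2 Spp2 probe sets was bright in captured neurons.

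Tph2, the serotonin enzyme, had separate values in the genotypes. Probe set 1435314_at read 452, 397 and 381 in SOD1-mutant neurons, 1100, 1194 and 1178 in wild-type neurons, and 79.7, 61.0 and 17.5 in cord. The 3 groups did not overlap, and the cord arrays were below background. The mean was at least 2.49-fold above cord in SOD1-mutant neurons and at least 6.84-fold in wild-type neurons. Pde6b, the photoreceptor enzyme subunit, read 1222, 213 and 892 in SOD1-mutant neurons on probe set 1419740_at, 1874, 1724 and 1533 in wild-type neurons, and 20.8, 113 and 37.7 in cord. Here too the 3 groups did not overlap, though mutant replicate 2 was below its background of 244 and the other 2 mutant arrays were above theirs. Pde6b was at least 3.73-fold above cord in SOD1-mutant neurons and at least 10.02-fold in wild-type neurons.

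Gnmt, the glycine methyltransferase, read 1540, 2057 and 1643 in SOD1-mutant neurons on probe set 1417422_at, 3346, 1989 and 2534 in wild-type neurons, and 354, 68.3 and 65.9 in cord. The captured groups overlapped at 1 pair of arrays, and 1 cord array was above background. The fitted difference from cord was 12.4-fold in SOD1-mutant neurons and 18.2-fold in wild-type neurons, on the scale of log2 of the signal plus 20.3, or 3.63 and 4.19 as log2 values. With every signal raised to at least background they were 2.93 in SOD1-mutant neurons and 3.49 in wild-type neurons, and without cord replicate 1, the array above background, they were 4.33 and 4.89.

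Polr1c, the polymerase subunit, is the one gene of the 8 whose brightest probe set was above background on every cord array. Probe set 1449648_s_at read 18442, 25153 and 20905 in SOD1-mutant neurons, 26659, 24581 and 20815 in wild-type neurons, and 836, 1195 and 890 in cord. The captured groups overlapped and lay far above cord, 21.7-fold in SOD1-mutant neurons and 24.3-fold in wild-type neurons. The other Polr1c probe set did not share this. Probe set 1417041_at read 2608, 2903 and 3192 in SOD1-mutant neurons, 3650, 3065 and 3658 in wild-type neurons, and 3714, 3558 and 3348 in cord. Wild-type neurons overlapped cord, with a log2 difference of -0.04, and SOD1-mutant neurons lay below cord with a log2 difference of -0.29, which turned to 0.16 after quantile normalization and to 0.56 after each array was centred on its median. The 2 probe sets of Polr1c thus disagreed, and the bright one carries the mark of probes that can bind other transcripts.

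Cd7, the lymphocyte surface protein, read 2428, 1327 and 2465 in SOD1-mutant neurons on probe set 1419711_at, 2880, 2158 and 2010 in wild-type neurons, and 39.3, 286 and 35.7 in cord. The captured groups overlapped, and cord replicate 2 alone of the cord arrays was above background. The fitted difference from cord was 20.0-fold in SOD1-mutant neurons and 23.2-fold in wild-type neurons, on log2 scale 4.32 and 4.54. These sizes rest on cord values of which 2 were below background. With every signal raised to at least background they were 3.33 in SOD1-mutant neurons and 3.54 in wild-type neurons, and without cord replicate 2 they were 5.12 and 5.34. Rasl10a, the small GTPase, read 2078, 1738 and 2275 in SOD1-mutant neurons on probe set 1427975_at, 1541, 3061 and 1931 in wild-type neurons, and 101, 156 and 54.3 in cord. The captured groups overlapped and cord was below background on all 3 arrays, which put the captured means at least 11.8-fold above cord in SOD1-mutant neurons and at least 12.3-fold in wild-type neurons.

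**Figure D1:**
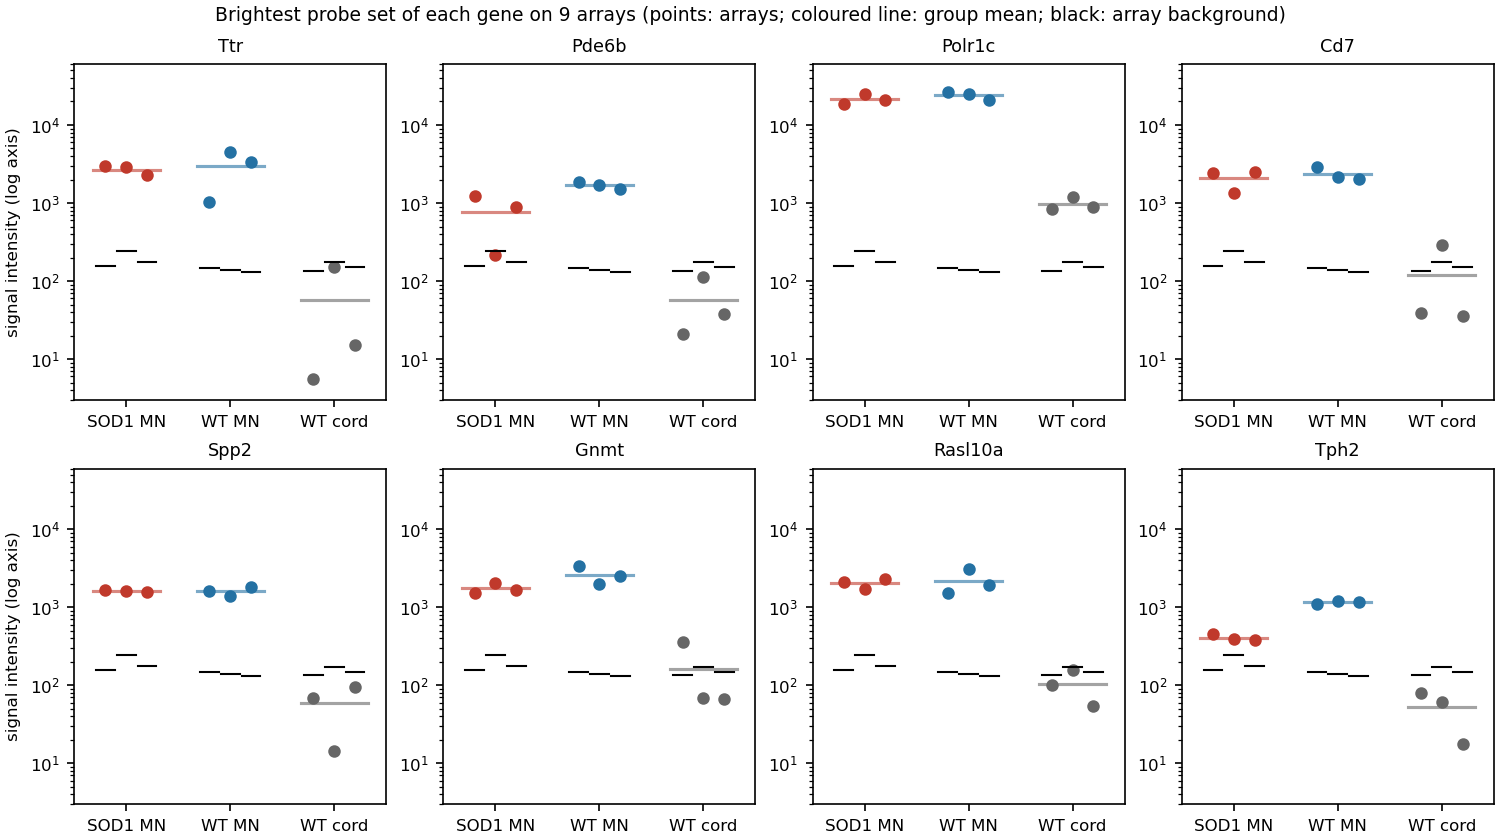
Signal of the brightest probe set of each of the 8 genes on every array, in the authors' scaled units on a log axis, with 1 point per array, a coloured line at the group mean, a black line at each array's background, and SOD1-mutant neurons left of wild-type neurons and cord. The captured arrays lie above the cord arrays for all 8 genes, and for Tph2 and Pde6b the SOD1-mutant arrays also lie below the wild-type ones.

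Among the 11 tested probe sets, all 3 wild-type motor neuron arrays lay above all 3 cord arrays in 10, as did 26.4% of all 27022 tested probe sets. The Polr1c probe set 1417041_at was the exception. That count follows from the way the genes were chosen. The mutant arrays had no part in the choice, but they are set against the same cord arrays. In 10 of the 11 probe sets all SOD1-mutant arrays lay above all cord arrays, as did 25.1% of all tested probe sets, and in 1 they lay below, as did 44.9%. In the 2 probe sets that the filter left out, the SOD1-mutant arrays overlapped cord. Probe sets dim in cord passed the filter through their captured signal, so the count of 10 also follows in part from the choice. Of the 11 tested probe sets, 10 were above background on all mutant arrays, 11 on all wild-type neuron arrays and 2 on all cord arrays. The ranking that chose the genes used fitted differences, which are no bounds where cord was below background. The last of the 8 in it was Tph2 at a log2 difference of 4.12, and the first genes below it were Lcn2 at 4.09 and Calcb at 4.04. Kcnj14 at 4.73 and Mnx1 at 4.49 ranked among the 8 and are not members.

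**Figure D2:**
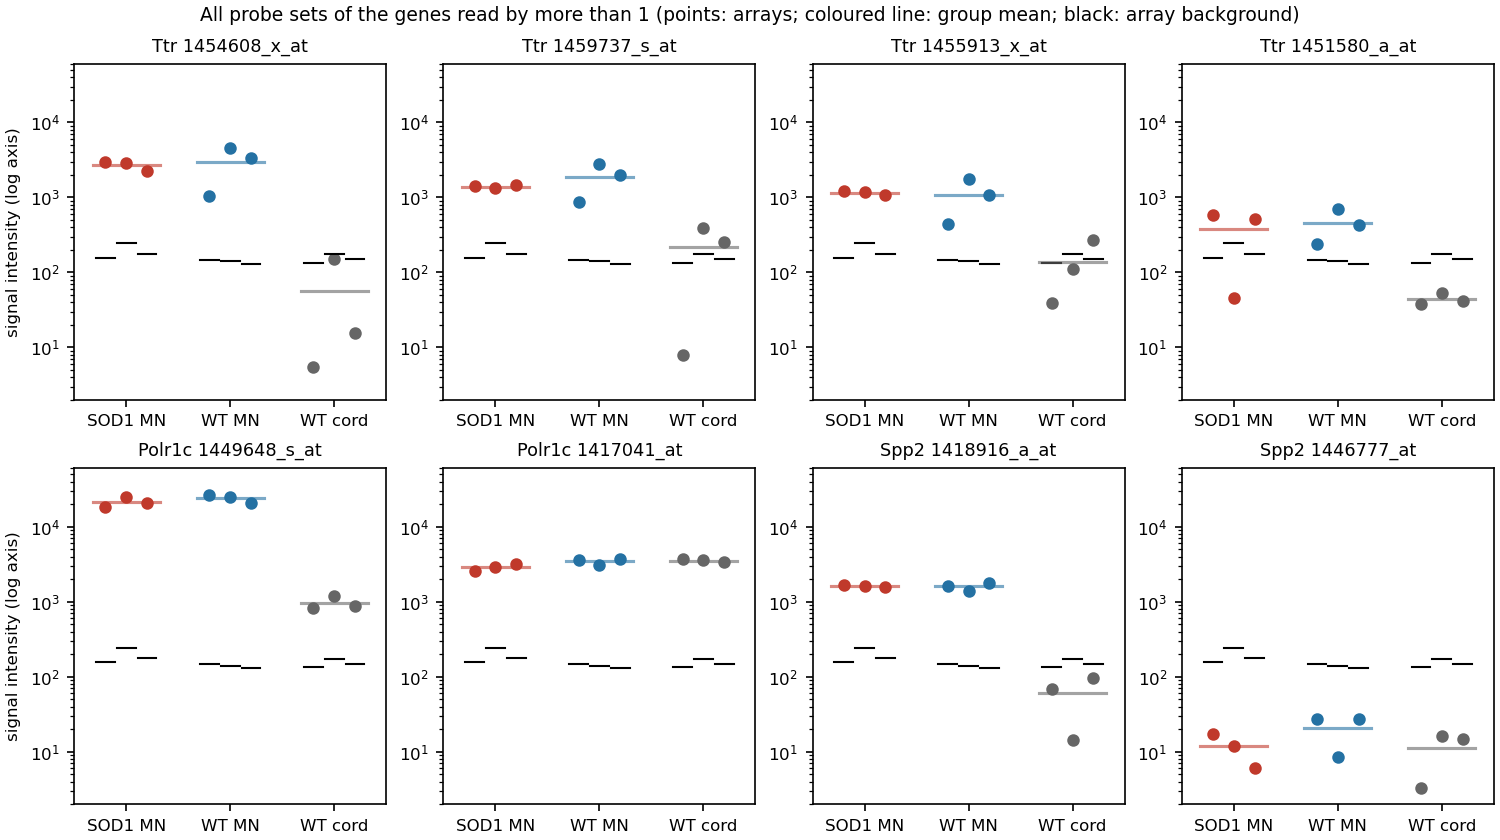
Signal on a log axis of every probe set of the 3 genes that have more than 1, with 1 point per array, a coloured line at the group mean and black lines at each array's background. Polr1c is bright in captured neurons against cord in 1 of 2 probe sets and Spp2 is above background in 1 of 2, while all 4 Ttr probe sets have captured group means above the cord mean.

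The comparison of SOD1-mutant with wild-type motor neurons asks whether the signal depends on genotype. None of the 11 probe sets passed limma's test at an adjusted p of 0.05, as 0.222% of all tested probe sets did. At an unadjusted p under 0.05 there were 3, Tph2, Pde6b and Gnmt, and 15.2% of all tested probe sets reached that level. The wild-type arrays were among those that chose the genes for high values, which biases this difference downwards by an unknown amount. The value was lower in SOD1-mutant neurons for 8 probe sets and higher for 3, with a median log2 difference of -0.22 beside -0.01 over all tested probe sets. In 2 of the 11, Tph2 and Pde6b, every mutant array lay below every wild-type array, as in 11.7% of all tested probe sets.

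Tph2 averaged 410 ± 37.7 in SOD1-mutant neurons and 1157 ± 50.2 in wild-type neurons (SD, n = 3 each). The log2 difference was -1.46 ± 0.27 (SE), with a 95% interval of -2.06 to -0.85, which is 2.74-fold lower in mutant neurons in 3 of 3 arrays. Its adjusted p was 0.0692 by limma, and the probe set ranked 107 of 27022 by p. Tph2 therefore just missed the threshold, and across the alternatives tried its adjusted p ran between 0.0459 and 0.397.

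Pde6b averaged 776 ± 514 in SOD1-mutant neurons and 1710 ± 171 in wild-type neurons (SD, n = 3 each). The log2 difference was -1.43 ± 0.51 (SE), with a 95% interval of -2.56 to -0.29 and an adjusted p of 0.233 by limma. The size rested on mutant replicate 2, since without that array the difference was -0.70 with an adjusted p of 0.230. Gnmt averaged 1747 ± 273 in SOD1-mutant neurons and 2623 ± 683 in wild-type neurons (SD, n = 3 each), a log2 difference of -0.56 ± 0.24 (SE) with a 95% interval of -1.09 to -0.03 and an adjusted p of 0.307 by limma.

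The other 5 genes had intervals that include 0. For the brightest Ttr probe set the log2 difference was 0.09, with a 95% interval of -0.88 to 1.05, the widest among the 5. For Spp2 it was 0.02, with an interval of -0.45 to 0.49. For Rasl10a it was -0.05, with an interval of -0.64 to 0.54. These intervals leave room for a change of that size in either direction. For Cd7 the difference was -0.22, with an interval of -0.82 to 0.39, and for the bright Polr1c probe set it was -0.16, with an interval of -0.51 to 0.18.

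**Figure D3:**
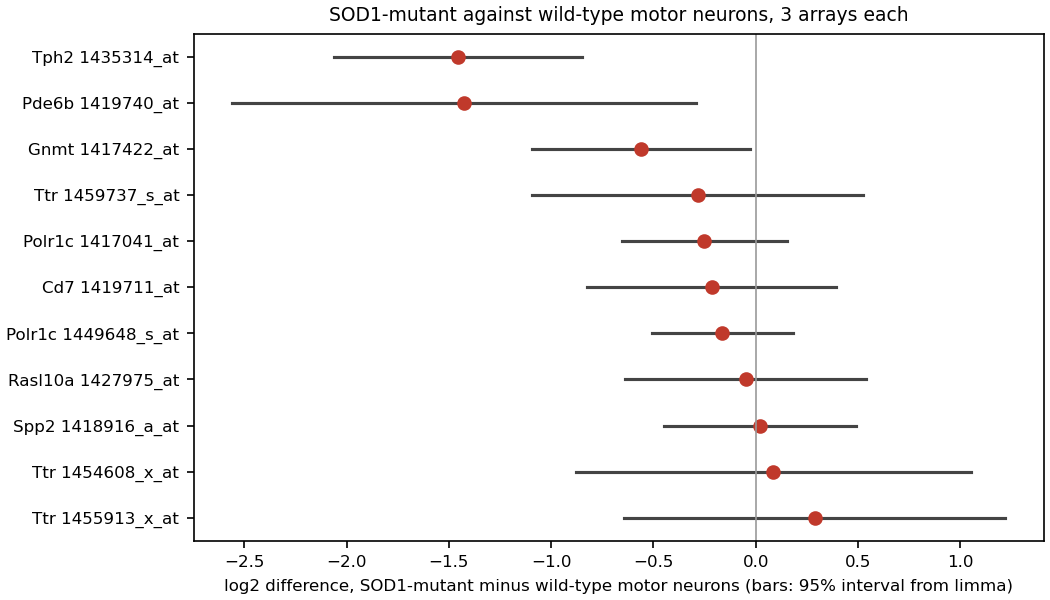
Log2 difference of SOD1-mutant minus wild-type motor neurons for the 11 tested probe sets, with the 95% interval of the limma fit and a line at 0. Tph2 lies at -1.46 with an interval that ends at -0.85, and the intervals of Pde6b and Gnmt also end below 0, but none of the 11 passed the adjusted threshold.

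The summed signals of glial markers were higher in SOD1-mutant than in wild-type neurons, with no overlap between arrays, although only 1 marker passed the test. The summed signal of the 12 astrocyte markers was 182252 to 194508 in SOD1-mutant neurons and 136122 to 153535 in wild-type neurons, against 396378 to 443698 in cord. That of the 12 oligodendrocyte markers was 350506 to 364574 in SOD1-mutant neurons and 295468 to 319957 in wild-type neurons, and that of the 11 microglia markers was 5167 to 6500 in SOD1-mutant neurons and 4036 to 4423 in wild-type neurons. Such sums rest mostly on the brightest genes. The median log2 difference of tested markers was 0.61 for astrocytes, 0.14 for oligodendrocytes and 0.26 for microglia, beside -0.01 over all genes. Higher medians were not particular to glia. They were 0.54 for interneuron markers and 0.30 for vascular and meningeal markers, whose summed signals overlapped between the genotypes. In 10.5% of all tested probe sets every SOD1-mutant array lay above every wild-type neuron array. The 1 glial marker that passed was the astrocyte gap junction gene Gja1. It averaged 29856 in SOD1-mutant neurons and 12468 in wild-type neurons (log2 difference 1.25, adjusted p 0.0170 by limma). The 16 motor neuron markers summed to 436320 to 491440 in SOD1-mutant neurons and 473657 to 480258 in wild-type neurons, and none of them passed. Isl1, a homeobox factor of motor neurons, averaged 14062 in SOD1-mutant neurons and 13138 in wild-type neurons, and Slc18a3, the vesicular acetylcholine transporter, averaged 7633 in SOD1-mutant neurons and 10816 in wild-type neurons. Chat, which makes acetylcholine, averaged 673 in both. The parts of glial RNA, of RNA from other cells and of RNA quality in the lower Tph2 and Pde6b values were not tested.

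Each gene was then set beside others of its pathway or tissue. One probe set was taken per gene, and over all genes tested 31.1% were called higher and 36.1% lower in wild-type motor neurons than in cord. These shares were 42.2% and 26.2% after quantile normalization and 57.8% and 15.3% after centring. Each list or flanking gene that was called as deposited and is named below with its change from cord kept that call after quantile normalization and after centring. No gene of the lists for serotonin, vision, choroid plexus, thyroid hormone and retinol, polymerases, lymphocytes, liver, one-carbon metabolism or Ras proteins passed the test between SOD1-mutant and wild-type neurons. By comparison 0.169% of all genes were called higher and 0.0847% lower there.

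Genes of serotonin synthesis, storage, uptake and reception went both ways, at shares close to those over all genes. Of 22 tested, 7 were higher in wild-type motor neurons than in cord and 7 lower, with a median log2 difference of -0.16. The split became 9 higher and 6 lower after quantile normalization and 11 higher and 6 lower after median centring. Ddc, which completes serotonin and dopamine synthesis, averaged 1369 ± 200 in wild-type motor neurons and 5952 ± 137 in cord (SD, n = 3 each), 4.33-fold lower with an adjusted p of 2.94e-06 by limma. Th, also on the list, was lower at a log2 difference of -2.66, with an adjusted p of 0.00385 by limma. Pcbd1, which recycles the pterin cofactor of the hydroxylases, averaged 15065 in wild-type motor neurons and 3349 in cord, with a log2 difference of 2.17 and an adjusted p of 3.07e-06. Maob, which breaks down amines and is abundant in glia, was at least 23.0-fold lower, and it averaged 534 in SOD1-mutant neurons and 102 in wild-type neurons, where no array was above background (adjusted p 0.103 between genotypes by limma).

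Genes that mark serotonin neurons differed among themselves in captured neurons. Slc18a2, the vesicular monoamine transporter, was not well above background on any captured array and was above it on all 3 cord arrays. Slc6a4, the serotonin transporter, was above background on 1 SOD1-mutant array, 2 wild-type neuron arrays and no cord array. Tph1, which makes serotonin mainly outside the brain, was below background on all 9 arrays. Ddc and the transcription factor gene Gata2 were above background on all 9. Lmx1b, another factor of serotonin neurons, was above it on 1 SOD1-mutant array, 1 wild-type neuron array and 3 cord arrays. It was lower in wild-type motor neurons than in cord, at a log2 difference of -3.17 with an adjusted p of 0.000727 by limma. Among the receptors, Htr3a, a serotonin-gated channel, averaged 3765 ± 539 in wild-type motor neurons and 843 ± 325 in cord (SD, n = 3 each), 4.58-fold higher with an adjusted p of 0.000131 by limma. The receptor genes Htr1b, Htr1f and Htr7 were also called higher. Htr1a was lower at a log2 difference of -3.66, with an adjusted p of 0.000323 by limma. Htr2c was lower at -1.42, with an adjusted p of 2.45e-06 by limma. The other tested receptor genes were not called.

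Many photoreceptor genes were dim in all groups. Of 32 measured, 9 were above background on all wild-type neuron arrays and 13 on none, and on cord arrays these numbers were 11 and 12. The filter on low signal left 10, and of these 1 was higher and 2 were lower in wild-type motor neurons than in cord. After quantile normalization 6 were higher and 3 lower, and after centring 8 were higher and none lower. The one called higher was Pde6h, the inhibitory subunit of the cone enzyme, which averaged 515 in wild-type motor neurons and 248 in cord with a log2 difference of 1.01 and an adjusted p of 0.0219 by limma, a call lost without wild-type replicate 3 or without cord replicate 1 or 3. Pde6a, the rod subunit that pairs with Pde6b, was below background on all 9 arrays, as were the cone subunit Pde6c, the rod channel Cnga1 and the calcium sensor Rcvrn. Others were above background on all 3 wild-type neuron arrays and were not called with the values as deposited. Among them were the arrestin genes Sag and Arr3, the rod factor Nrl and the disc protein gene Rom1. Sag, Arr3, Nrl and Rom1 were each called higher after quantile normalization and after centring. The summed signal of the 32 genes was 47082 to 49091 in SOD1-mutant neurons and 48599 to 53183 in wild-type neurons, against 53482 to 62971 in cord. Most of it came from the widely expressed Gnb1, which averaged 33496 in SOD1-mutant neurons, 35124 in wild-type neurons and 35010 in cord.

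Choroid plexus genes, which in the brain accompany high Ttr, were mostly lower. Of 11 tested, 8 were lower in wild-type motor neurons than in cord and 1 was higher, with a median log2 difference of -2.67, and 8 were lower after quantile normalization and 6 after centring. The 1 higher call was lost without wild-type replicate 1 or 3 or cord replicate 1 or 3. Igf2, a growth factor, was at least 105-fold lower. Lower calls were not particular to this list, since all 13 tested vascular and meningeal markers were lower too. Of 22 measured, 7 were above background on all wild-type neuron arrays and 5 on none, and on cord arrays these numbers were 15 and 4. Kl, a defining gene of choroid plexus epithelium, did not pass the filter. It read 8.05 to 11.9 in wild-type neurons, all below background, and 159 to 354 in cord, above background on 2 arrays. Clic6 and F5 were above background on all wild-type neuron and cord arrays. Kcne2 was above it on no array, and Otx2 on 1 wild-type neuron array and no cord array. The summed signal of the 22 choroid plexus genes was 14016 to 17414 in SOD1-mutant neurons and 15328 to 18802 in wild-type neurons, against 48574 to 72075 in cord. Of the genes for transport and action of thyroid hormone and retinol, which Ttr carries, 1 of 15 tested was higher and 8 were lower in wild-type motor neurons, 3 higher and 6 lower after quantile normalization and 5 and 5 after centring. The lower ones included the retinoid-binding protein gene Crabp1, at a log2 difference of -4.02, and the thyroxine transporter gene Slco1c1, at -2.98.

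Tested genes of liver and plasma proteins, the company of Ttr, Spp2 and Gnmt in hepatocytes, were also mostly lower. Of 32 measured, 12 were above background on all wild-type neuron arrays and 10 on none, and on cord arrays these numbers were 9 and 10. Of 11 tested, 1 was higher and 7 were lower in wild-type motor neurons than in cord, and after both quantile normalization and centring 2 were higher and 6 lower. Apoa2, a lipoprotein gene, averaged 934 ± 89.7 in wild-type motor neurons and 234 ± 172 in cord (SD, n = 3 each), 4.87-fold higher with an adjusted p of 0.0117 by limma. Vtn, which encodes vitronectin, had a log2 difference of -4.87. Alb, which encodes albumin and defines hepatocytes, was below background on all 9 arrays. F9, coagulation factor IX, did not pass the filter but was above background on all 6 captured arrays and on no cord array, reading 175 to 505 in wild-type neurons, against 14.8 to 30.3 in cord. The summed signal of the 32 measured genes was 45085 to 56853 in SOD1-mutant neurons and 58561 to 62312 in wild-type neurons, against 148037 to 164906 in cord. Most of it came from Cst3, a protease inhibitor gene that many tissues express, which averaged 35118 in SOD1-mutant neurons, 43396 in wild-type neurons and 100328 in cord.

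Lymphocyte genes were at or near background in part. Of 29 measured, 12 were below background on all wild-type neuron arrays, 4 were above it on all of them, and 4 passed the filter, with 1 higher and 1 lower in wild-type motor neurons than in cord under all 3 scalings, but 0 higher without wild-type replicate 3 or without cord replicate 1 or 3. Zap70, a kinase of the T cell receptor, averaged 2301 in wild-type motor neurons and 1269 in cord with an adjusted p of 0.0193 by limma, and Ptprc, the pan-leukocyte surface phosphatase, was 7.13-fold lower with an adjusted p of 0.00167. The T cell receptor genes Cd3e and Cd3g and the co-receptors Cd4 and Cd8b1 did not exceed background on any of the 3 arrays of wild-type neurons. The co-receptor Cd8a, the natural killer receptor Ncr1 and the perforin gene Prf1 were above background on all 3. The summed signal of the 29 genes was 4148 to 8250 in SOD1-mutant neurons and 4351 to 6404 in wild-type neurons, against 5863 to 6500 in cord.

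The subunits and factors of RNA polymerases I and III showed a mixed picture around Polr1c. Of 36 tested, 14 were higher and 11 lower in wild-type motor neurons than in cord, with a median log2 difference of 0.11, 20 higher and 4 lower after quantile normalization and 25 higher and 2 lower after centring. Polr3g, a polymerase III subunit, averaged 9992 in wild-type motor neurons and 1228 in cord, 8.01-fold higher with an adjusted p of 8.07e-07 by limma. Polr1d, the partner of Polr1c in both enzymes, was 2.87-fold higher with an adjusted p of 2.11e-06. Taf1b, a factor that places polymerase I on ribosomal genes, was 4.83-fold lower with an adjusted p of 6.67e-05.

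Methionine and one-carbon genes were likewise split around Gnmt. Of 25 tested, 7 were higher and 5 lower in wild-type motor neurons than in cord, 10 higher and 6 lower after quantile normalization and 16 higher and 2 lower after centring, and without wild-type replicate 1 or 2 there were 8 lower. Gcsh, a carrier protein of glycine cleavage, was 4.06-fold higher with an adjusted p of 1.63e-07 by limma. Gatm, which uses glycine to start creatine synthesis, had a log2 difference of -2.42. Mat1a, the liver enzyme that makes the S-adenosylmethionine Gnmt consumes, was below background on all 9 arrays.

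Small GTPases of the Ras family held 11 higher and 8 lower of 27 tested in wild-type motor neurons against cord, 15 higher and 6 lower after quantile normalization and 19 higher and 3 lower after centring. Gem, a GTPase that restrains calcium channels, averaged 4331 in wild-type motor neurons and 349 in cord, 11.7-fold higher with an adjusted p of 1.11e-06 by limma. Rasl10b, a relative of Rasl10a, was 3.46-fold lower with an adjusted p of 1.17e-05.

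**Figure D4:**
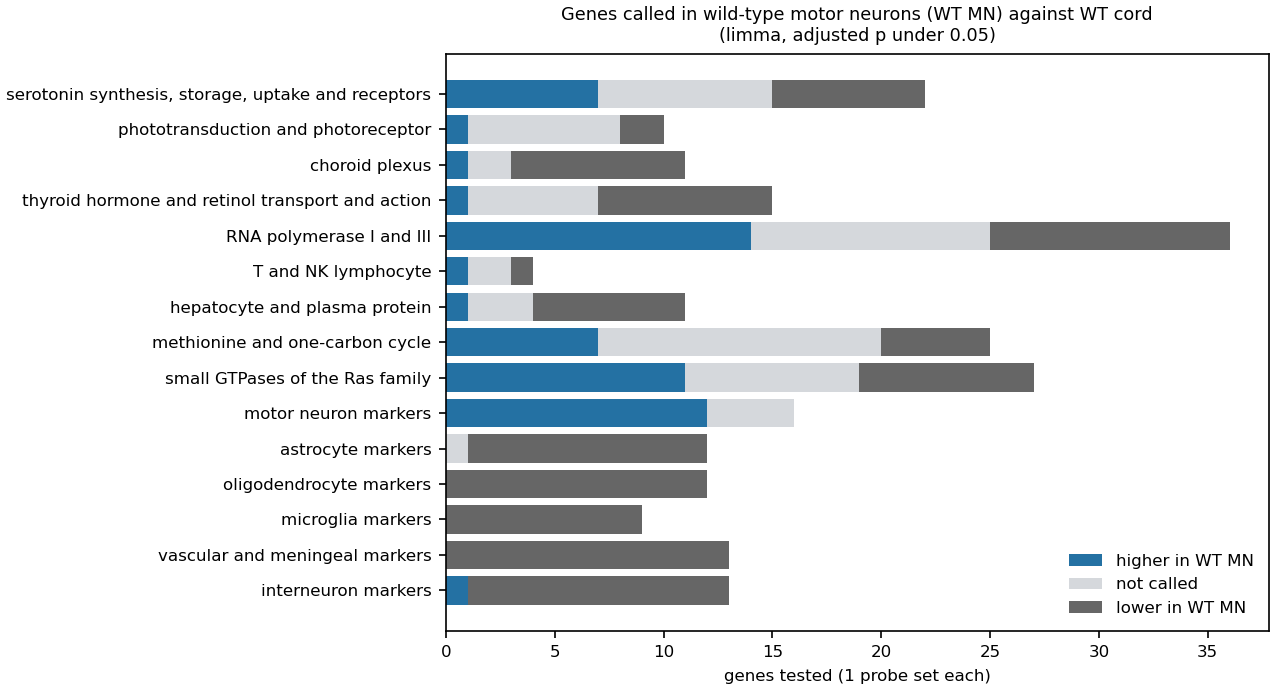
Number of genes called higher, not called and called lower in wild-type motor neurons against wild-type cord for each list of related genes and cell markers, by limma at an adjusted p under 0.05. Motor neuron markers hold 12 higher and 0 lower, while choroid plexus and liver genes each hold 1 higher, with 8 and 7 lower.

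The 8 genes lie on 6 chromosomes, with Polr1c and Gnmt both on chromosome 17 and Rasl10a and Cd7 both on chromosome 11. Among the 48 protein-coding genes that flank them, 3 on each side in RefSeq order, 34 were tested. Of these, 17 were higher and 13 lower in wild-type motor neurons than in cord, where 31.1% and 36.1% of all genes were. The split was 17 and 8 after quantile normalization and 21 and 3 after centring, where 42.2% and 26.2%, and 57.8% and 15.3%, of all genes were called. None passed the test between SOD1-mutant and wild-type neurons. Kcnc2, a potassium channel gene near Tph2, came closest, with a mean of 1755 ± 557 in SOD1-mutant neurons and 356 ± 196 in wild-type neurons (SD, n = 3 each) and an adjusted p of 0.0501 by limma. Polh, a DNA polymerase gene near Polr1c, had the highest log2 difference from cord among them, at 2.61. Around Rasl10a, 5 of 6 neighbours were higher, among them the neurofilament gene Nefh at 1.15 and Ewsr1 at 1.03, while Emid1 was lower at -4.85. Around Tph2, Kcnc2 was lower at -4.13.

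**Figure D5:**
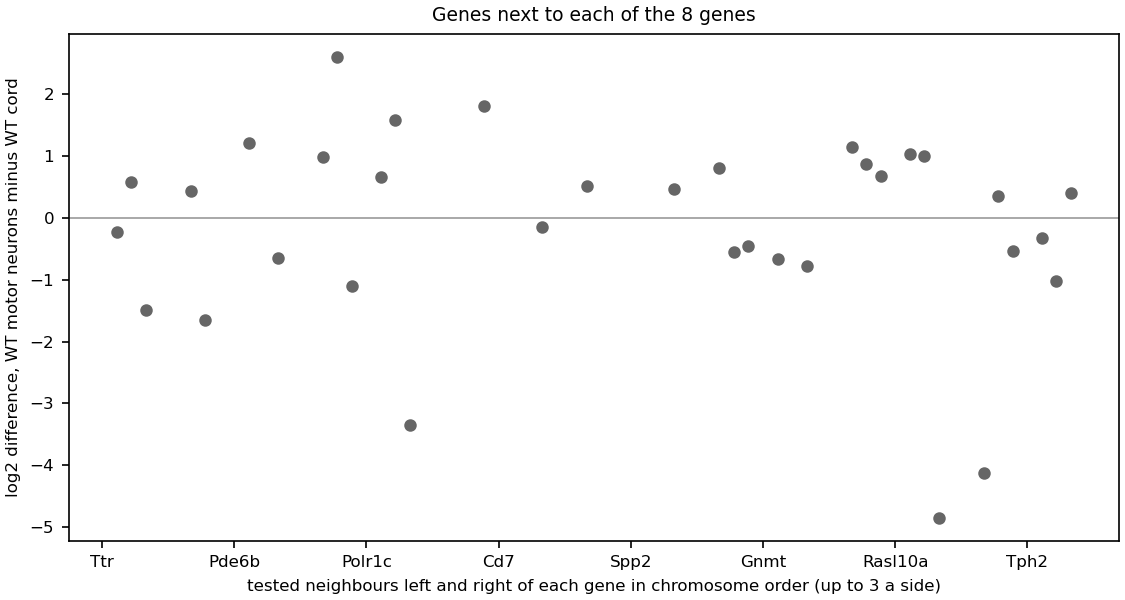
Log2 difference of wild-type motor neurons minus wild-type cord for the tested neighbours of each of the 8 genes, in chromosome order, with 1 point per gene. They lie between -4.85, for Emid1 near Rasl10a, and 2.61, for Polh near Polr1c.

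The genes most like each member were found by the root mean square distance between log2 profiles over the 9 arrays, each centred on its own mean, among 12323 genes. The 9 arrays include the wild-type neuron and cord arrays by which the members were chosen. Nearness to other members, or to other genes with a large rise over cord, therefore follows in part from that choice. Polr1c had the closest match, the potassium channel gene Kcnj14 at a distance of 0.195, followed by the metalloproteinase gene Mmp9 at 0.320. Amhr2 and Pappa were nearest to Rasl10a, at 0.357 and 0.370. Calcb and Chodl were nearest to Spp2, at 0.420 and 0.477, and Isl1 and Calcb were nearest to Gnmt, at 0.470 and 0.521. Hsd17b2 and Popdc3 were nearest to Tph2, at 0.563 and 0.583.

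The remaining 3 had their nearest matches partly among the 8 themselves. Rasl10a and Polr1c were nearest to Cd7, at 0.587 and 0.634. Mnx1 and Cd7 were nearest to Pde6b, at 0.719 and 0.727. Ttr stood farthest from any gene, with Cd7 at 0.914 and Rasl10a at 0.938. Within the 8, Polr1c and Rasl10a were the closest pair at 0.429 and Ttr and Gnmt the farthest apart at 1.58. Distances over cord arrays below background include noise, so they describe these arrays only.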

How the data were processed

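The members, the gene lists and the tests were chosen with earlier results of these data known. The authors deposited 1 signal intensity per probe set and array on a linear scale. The values have a trimmed mean of 2500 on every array once 2% is left out at each end, so arrays were already scaled; the software is not named in the labels or the file. After 64 control probe sets were left out, 45037 remained, of which 34945 carry 1 gene symbol, 932 several and 9160 none. Signals were analysed as log2 of the value plus 20.3, their 10th percentile, and 27022 probe sets of 12983 genes with a mean past the 40th percentile were tested. Genotypes and tissues were compared with limma 3.58.1 in R 4.3.3, with an intensity trend, 2 groups at a time, two-sided, with Benjamini-Hochberg adjustment over all tested probe sets and a threshold of 0.05. Fold changes are on that log2 scale and understate low signals. Background on an array is the 95th percentile of 27 bacterial control probe sets. The number of arrays, 3 per group, limits the precision. On simulated arrays with 200 changed probe sets, the SOD1 comparison recovered 35% of log2 changes of 1 and 67% of changes of 2, with 13 false calls. The simulated noise was normal, with the same spread in both groups of a comparison, which the real groups need not have.

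Named were all 8 members, up to 4 called genes per related list with the largest change, the 2 nearest profiles, the flanking genes, Mnx1, Isl1, Slc18a3 and Chat, and the top of the ranking. Defining genes of other cell types, Slc6a4, Ddc, Pcbd1, the serotonin receptor genes, Polr1d, Zap70, Ptprc, F9, Rasl10b, Gja1, Gnb1, Cst3 and other genes given only by their count of arrays above background were singled out after their values were seen wherever that rule does not name them. Mean levels are signals averaged over 3 arrays. Flanking genes were taken from RefSeq, with names only.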

Additional observations from a re-analysis of the deposited data

How the results depend on the processing

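All 10 bright tested probe sets kept higher values in captured neurons than in cord under every alternative run for them. That follows in part from the choice of the genes, which was made by this difference on these same arrays. The dim Polr1c probe set changed sign between SOD1-mutant neurons and cord, at 0.16 after quantile normalization and 0.56 after centring. In the SOD1 comparison, 41 probe sets were called higher and 19 lower. Counts higher and lower were 15 and 5 after centring, 63 and 34 with signals raised to background (chosen after seeing the data), and 572 and 612 with all 9 arrays in 1 fit, and the lower count was 6 after quantile normalization and 33 past the 60th percentile. Leaving out 1 array gave 6 to 45 higher and 0 to 26 lower, with 7 and 0 without SOD1-mutant replicate 3, 11 and 0 without wild-type replicate 1, 13 and 0 without replicate 2, and 6 and 0 without replicate 3. None of the 8 genes was called in any of these. A fit with the replicate number as a block called 226 higher and 217 lower, and 1 member, Tph2, at an adjusted p of 0.0459, within 0.0459 to 0.397 over all settings. The labels name nothing that shared numbers stand for, so the numbers were not taken to pair the arrays. The deviations of same-numbered SOD1-mutant and wild-type neuron arrays correlated at 0.145, 0.171 and 0.002. With the other wild-type neuron arrays, SOD1-mutant replicate 1 gave -0.128 and -0.027, and replicate 2 gave -0.185 and 0.023. The same-numbered array was thus the best match for replicates 1 and 2. SOD1-mutant replicate 3 correlated best with wild-type replicate 1, at 0.063. Whether same-numbered arrays have anything in common was not tested. Past the 60th percentile 7 of the 11 probe sets were left, without Tph2.

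Against cord, 6494 probe sets were called higher and 11206 lower in wild-type neurons, 9647 and 7693 after quantile normalization, and 12942 and 5269 after centring, with 7214 lower past the 60th percentile. In SOD1-mutant neurons 5925 were higher and 10859 lower, 8997 and 7371 after quantile normalization, 11599 higher and 5157 lower after centring, and 7084 lower past the 60th percentile. The median log2 difference between wild-type neurons and cord over all tested probe sets was -0.35 as deposited, 0.13 after quantile normalization and 0.56 after centring. Smaller counts past the 60th percentile come with 18015 probe sets tested; the cause of the other shifts was not tested.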
